A study of Mus musculus with 6 samples.

Results

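The genes described here are 32 genes of glycolysis and of the response to low oxygen in cultured mouse biliary epithelial cells, which form the wall of the bile ducts. They were chosen by name, with earlier results of these data known, and all 32 were found among the 32061 genes of the count table. There are 14 glycolytic enzymes, 3 transporters of glucose or lactate, 2 kinases that set the flow through the pathway, the transcription factor gene Hif1a and 12 target genes of hypoxia-inducible factors (HIF) outside glycolysis. RNA was sequenced from 3 samples labelled competent for primary cilia, not given 4OHT, and 3 samples labelled depleted of cilia, given 4OHT. The abbreviation commonly stands for 4-hydroxytamoxifen, a drug that activates Cre recombinases fused to an oestrogen receptor domain. The deleted gene, the mouse strain, the age of the animals, how much 4OHT was given, and when, are not given in the sources used here, so an effect of 4OHT itself and an effect of cilium loss cannot be told apart. In both groups the cells came from hand-picked bile ducts, grew as organoids in Matrigel for 4 to 5 passages and were then plated flat on collagen.

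Glycolysis splits glucose into pyruvate in the cytosol and yields ATP without oxygen. Pyruvate is then reduced to lactate or enters the mitochondria. HIF is a transcription factor with an oxygen-sensitive alpha subunit, encoded by Hif1a or its relatives, and a stable partner encoded by Arnt. When oxygen is present, prolyl hydroxylases encoded by the Egln genes mark the alpha subunit for destruction through the von Hippel-Lindau protein. When oxygen is low, HIF accumulates and raises most glycolytic enzymes, the glucose transporter Slc2a1, and feedback genes that include Egln1 and Egln3. Several of these genes also answer to other signals, such as MYC for Hk2 and Ldha, or the amino acid and stress factor ATF4 for Ddit4 and Vegfa.

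Total counts per sample were 26293486 to 36998935, and 3 counts corresponded to 0.0797 to 0.119 CPM (counts scaled to library size with TMM factors). Keratin genes of biliary cells were abundant, with Krt7 at 3150 and 2471 CPM on average in competent and depleted samples and Krt8 at 5429 and 5194 CPM, although the classical marker Krt19 was at only 12.5 and 8.33 CPM. Of 9 hepatocyte markers the sum was 19.4 to 26.9 CPM in competent and 16.5 to 18.3 CPM in depleted samples, with Cyp3a11 and Tat at or near 0. The 8 immune markers summed to 3.41 to 3.88 and 5.32 to 6.26 CPM, mostly Cd68, the 8 endothelial markers to 0.235 to 0.876 and 0.686 to 0.832 CPM, and the 10 mesenchymal markers to 1115 to 1188 and 1258 to 1279 CPM, nearly all of it Vim, which cultured epithelium also expresses, with Col1a2 and Col3a1 at 0. Of the other mesenchymal markers, Col1a1 was at 1.38 and 3.04 CPM on average and Acta2 at 1.29 and 0.344 CPM. The 10 biliary markers summed to 15411 to 16250 CPM in competent and 13256 to 14290 CPM in depleted samples, and mitochondrial transcripts held 1.78% to 2.16% and 1.25% to 1.65% of counts; the part of either in the results was not tested. Whether replicates are separate cultures is left unsaid in the labels, and p-values therefore cover the spread among these samples alone, which may be technical.

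Of the 32 genes, 31 passed the filter on low counts, 12 rose in depleted cells, 14 fell and 5 did not pass an adjusted p of 0.05 (edgeR). Among all 13839 genes tested 69.2% changed, 34.9% upwards and 34.3% downwards, so these counts are close to the background. The enzymes from aldolase to lactate dehydrogenase fell, whereas hexokinase 2, the flux kinase Pfkfb3, the glucose transporter Slc2a1 and the HIF targets Vegfa, Ddit4, Ndrg1, Kdm3a and Adm rose. Other HIF targets, among them the oxygen sensor gene Egln1 and Car9, fell. In the 6 libraries the 14 enzymes together held 0.506% to 0.534% of all counts when competent and 0.349% to 0.368% when depleted. The 12 HIF targets together held 0.0806% to 0.0842% and 0.176% to 0.188%. The higher sum of the HIF targets came mainly from Ddit4, Vegfa and Ndrg1, at 175, 121 and 186 CPM on average in competent samples. In depleted samples these genes were at 655, 511 and 449 CPM, while 5 of the 12 HIF targets fell. In bulk samples fewer cells of a type and less RNA per cell cannot be told apart.

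**Figure D1:**
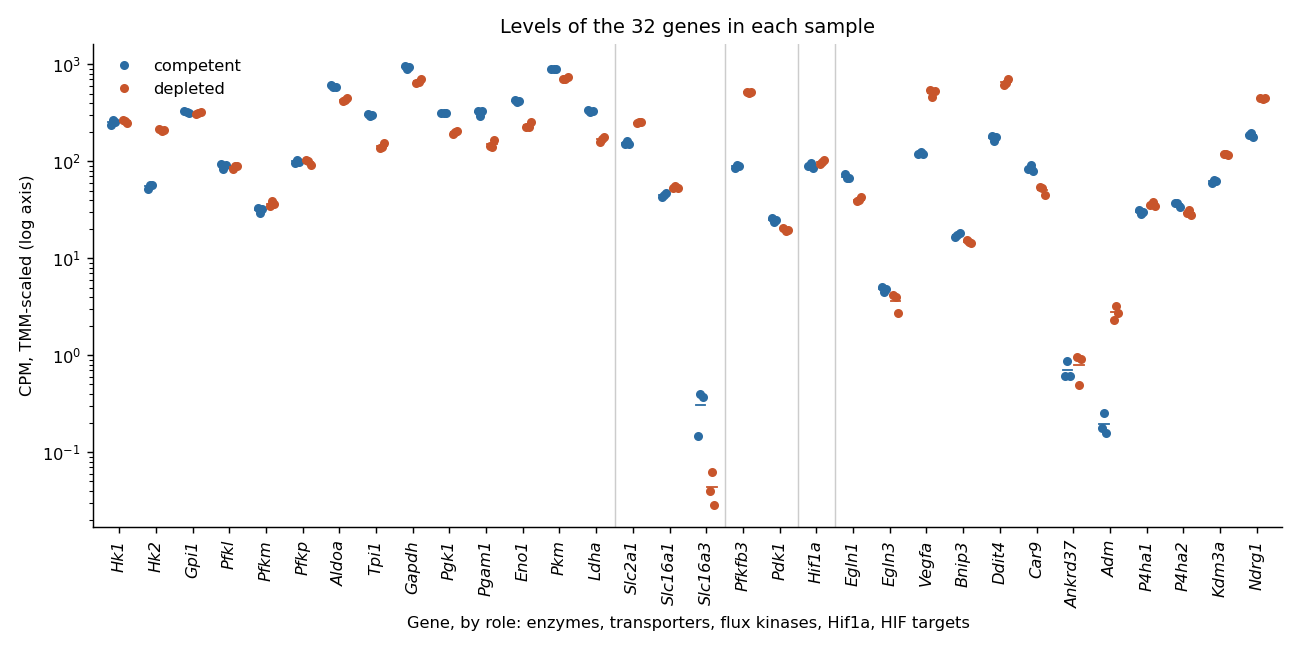
TMM-scaled CPM on a log axis of each of the 32 genes in 3 competent (blue) and 3 depleted (orange) samples, with a short line at each group mean; vertical lines divide enzymes, transporters, flux kinases, Hif1a and HIF targets. The 8 enzymes from Aldoa to Ldha lie lower in every depleted sample, while Hk2, Pfkfb3, Vegfa, Ddit4 and Adm lie higher in every one.

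Replicates lay close together. For the 29 members with a mean log2 CPM of at least 2 the coefficient of variation within a group was 0.348% to 21.2%, with a median of 4.45%. The groups did not overlap for 25 of the 31 tested members, against 72.5% of all genes tested.

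The entry of glucose was read first. Slc2a1 (chromosome 4, 119108711 to 119137983 in GRCm38), which encodes the widely expressed glucose transporter GLUT1, had 152, 162 and 152 CPM in competent and 246, 253 and 252 CPM in depleted samples. Every depleted sample was above every competent one, a rise of 1.62-fold (log2 change 0.69, SE 0.043, adjusted p = 9.05e-09). Of the hexokinases, which trap glucose in the cell by phosphorylation, Hk2 (chromosome 6, 82725025 to 82774454) had 52.4, 57.4 and 57.0 CPM in competent and 216, 206 and 211 CPM in depleted samples. The Hk2 groups were far apart, and the rise was 3.79-fold (log2 change 1.92, SE 0.047, adjusted p = 1.03e-12). Hk1, the housekeeping form, had 237, 269 and 254 CPM against 267, 261 and 249 CPM. Its groups overlapped and it did not pass (log2 change 0.03, adjusted p = 0.587).

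The balance between the hexokinases therefore differed between the groups. Per kilobase of transcript, Hk2 made up 14.6% ± 0.31 of the summed Hk1 and Hk2 message in competent and 38.7% ± 0.836 in depleted samples (SD, n = 3 each). The summed level was 69.3 CPM per kilobase in competent and 98.8 in depleted samples. The related gene Hkdc1 was low, at 5.59 and 5.90 CPM on average, and did not pass (adjusted p = 0.535), and the messages of glucokinase and of the hexokinase gene Hk3 were too low to test.

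Glucose 6-phosphate isomerase and phosphofructokinase messages moved little. Gpi1, which encodes the isomerase, was at 317 to 331 CPM in competent and 308 to 319 CPM in depleted samples and did not pass (adjusted p = 0.360). Phosphofructokinase is the main control point of the pathway and has liver, muscle and platelet forms. The liver form Pfkl and the platelet form Pfkp did not pass (log2 changes -0.03 and -0.03, adjusted p = 0.648 and 0.643). The muscle form Pfkm rose slightly, from 29.4 to 32.8 CPM up to 34.4 to 39.2 CPM (log2 change 0.22, adjusted p = 0.00526). Its share of phosphofructokinase message per kilobase was 18.5% ± 0.657 in competent and 21.3% ± 0.978 in depleted samples, and Pfkl and Pfkp held about equal shares in both groups, at 40.7% and 40.9% in competent and 39.3% and 39.5% in depleted samples.

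The kinase gene that acts on this step changed more than any enzyme of the pathway. Pfkfb3 (chromosome 2, 11471433 to 11554077) encodes a bifunctional enzyme that makes the fructose bisphosphate that activates phosphofructokinase. It had 86.0, 91.5 and 90.4 CPM in competent and 519, 512 and 523 CPM in depleted samples. All depleted samples were far above the competent ones, a rise of 5.80-fold (log2 change 2.54, SE 0.044, adjusted p = 3.53e-14).

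Below this point the main enzyme messages were lower in depleted cells. All 8 member enzymes from aldolase to lactate dehydrogenase fell, with a median log2 change of -0.75. Their groups did not overlap, which was also so for 72.5% of all genes tested. Of the 6 enzymes upstream of aldolase, 2 rose (Hk2 and Pfkm) and 4 did not pass, none falling. The median log2 change of these 6 was 0.00227. This division of the pathway was made after the values were seen, and it covers only the member genes. Of other genes for the same steps that were tested, Aldoc, Eno1b and Ldhb fell, Eno3 did not pass (adjusted p = 0.0641), and Eno2 and Pklr rose. Pklr, the pyruvate kinase gene of liver and red cells, rose from 70.5 to 81.0 CPM on average (log2 change 0.20, adjusted p = 0.00202), a call lost with the length trend removed (adjusted p = 0.140). Taken as the full list of 14 enzymes, 8 fell, 2 rose and 4 did not pass, where 34.3% of all genes tested fell and 34.9% rose. The median log2 change of the 14 was -0.39 beside -0.006 for all genes tested.

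The largest fall among the enzymes was that of Pgam1 (chromosome 19, 41911923 to 41918660), which encodes phosphoglycerate mutase. It had 333, 296 and 332 CPM in competent and 144, 140 and 165 CPM in depleted samples, 2.14-fold lower (log2 change -1.10, SE 0.065, adjusted p = 6.02e-09). Tpi1, which encodes triose phosphate isomerase, had 308, 295 and 300.1 CPM against 138, 141 and 155 CPM, 2.08-fold lower (adjusted p = 6.37e-10). For both genes the highest depleted sample was well below the lowest competent one, and depleted replicate 3 was the highest of its group. Ldha (chromosome 7, 46841475 to 46855627), which encodes the lactate dehydrogenase subunit that favours lactate formation, had 342, 323 and 329 CPM against 160, 171 and 177.5 CPM. Ldha was thus 1.95-fold lower in depleted cells (log2 change -0.97, SE 0.048, adjusted p = 1.10e-09).

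Enolase and phosphoglycerate kinase followed. Eno1, the main enolase gene, had 432, 408 and 421 CPM against 225, 228 and 253 CPM and was 1.78-fold lower (adjusted p = 8.67e-09). Pgk1, which encodes phosphoglycerate kinase, had 313, 316 and 316 CPM against 191, 201 and 208 CPM and was 1.57-fold lower (adjusted p = 1.90e-08). The smaller falls were those of the most abundant messages of the pathway. Gapdh, which encodes glyceraldehyde phosphate dehydrogenase and often serves as a reference gene, fell from 936 ± 29.9 to 671 ± 29 CPM (SD, n = 3; log2 change -0.48, adjusted p = 7.94e-07). Aldoa, the main aldolase gene, fell from 596 ± 12.4 to 433 ± 16.7 CPM (log2 change -0.46, adjusted p = 6.63e-07). Pkm, which encodes the pyruvate kinase of tissues other than liver and red cells, fell from 901 ± 3.13 to 719 ± 18.8 CPM (log2 change -0.33, adjusted p = 1.05e-05).

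Several of these genes have near-identical copies in the mouse genome, and how reads with several matches were counted was not given. Of 50-base stretches in the main transcript, 82.5% for Gapdh, 72.2% for Eno1, 68% for Pgk1, 41.5% for Pgam1 and 34.4% for Pkm also occur in transcripts of other genes. Their absolute levels are therefore uncertain. Copies that share at least 10% of these stretches held 41.1% of the joint counts for Gapdh and 15.4% for Eno1, the latter all in Eno1b, and 0 counts for Pgk1, Pgam1 and Pkm. With the counts of the copies added, a choice made after the data were seen, the log2 change was -0.49 for Gapdh and -0.83 for Eno1.

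Transcript length moved with these results. Spearman's rho between length and log2 change was 0.324 over 13831 genes, a description since genes do not vary independently, with short transcripts lower in depleted cells. The 8 falling enzymes have main transcripts of 1420 to 2432 nt and the 6 enzymes above them 2879 to 5513 nt, against a median of 3016 nt for all genes tested. With the length trend removed by a loess curve per library, all 8 fell still, with a median log2 change of -0.72, and Hk2 rose by 1.69 on the log2 scale. Of the 6 others, 4 then fell (Hk1, Gpi1, Pfkl and Pfkp, with log2 changes of -0.15, -0.16, -0.20 and -0.21), and Pfkm no longer passed (0.10, adjusted p = 0.136). The enzyme list then counted 1 rise, 12 falls and 1 that did not pass, beside 29.8% and 39.8% of all genes. Whether Hk1, Gpi1, Pfkl and Pfkp count as changed thus rests on the scaling. For Hk2 and the 8 enzymes below phosphofructokinase it did not under the scalings run.

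**Figure D2:**
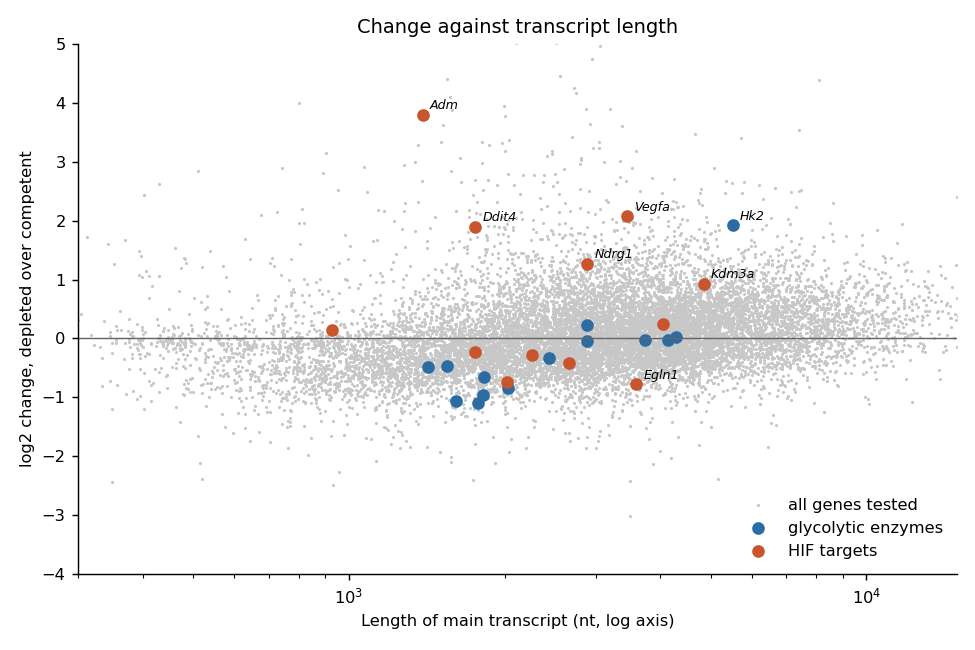
The log2 change (depleted over competent) of each gene tested against the length of its main transcript on a log axis, with all genes in grey, 14 glycolytic enzymes in blue and 12 HIF targets in orange; rises above 0.7 and Egln1 are named, and 104 genes lie outside the axes. The falling enzymes lie on the short side of the cloud but below its centre, and the rising HIF targets Adm and Ddit4 have main transcripts of 1390 and 1755 nt.

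The fate of pyruvate and lactate was read next. Ldhb, which encodes the subunit that favours pyruvate formation, was low, and Ldha held 97.4% ± 0.329 of the dehydrogenase message per kilobase in competent and 96.7% ± 0.177 in depleted samples. Slc16a1, which encodes the lactate and pyruvate carrier MCT1, had 43.0, 45.0 and 47.3 CPM in competent and 53.2, 55.2 and 52.7 CPM in depleted samples. This small rise (1.19-fold, adjusted p = 0.000516) was lost with the length trend removed (log2 change 0.06, adjusted p = 0.295). Slc16a3, which encodes MCT4, the lactate exporter of strongly glycolytic cells and a HIF target, did not pass the filter, with 5, 14 and 14 counts against 1, 2 and 1. Scaled for library size its ratio of competent over depleted was 7.14, with a 95% exact counting interval of 2.54 to 27.7. That interval pools the counts of each group and leaves out the spread between replicates. Pdk1, a HIF target whose product keeps pyruvate out of the mitochondria by inhibiting pyruvate dehydrogenase, had 26.1, 23.8 and 24.9 CPM against 20.8, 19.3 and 19.6 CPM. All depleted samples were below the competent ones, 1.25-fold lower (adjusted p = 0.000313).

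The HIF alpha subunit message itself differed little. Hif1a (chromosome 12, 73901375 to 73947530) had 89.5, 96.3 and 86.3 CPM in competent and 94.9, 98.8 and 103 CPM in depleted samples. The groups overlapped, and although the gene passed (log2 change 0.13, adjusted p = 0.0376) the call was lost with DESeq2 (adjusted p = 0.0612), with upper-quartile scaling (adjusted p = 0.185) and when competent sample 1 or 3 or depleted sample 2 or 3 was left out (log2 changes 0.12, 0.09, 0.13 and 0.10). It turned to -0.08 with the length trend removed (adjusted p = 0.169). HIF is controlled mainly through the stability of its protein, which messenger RNA does not show. Epas1, which encodes the other main alpha subunit and was named as a relative of Hif1a, was at 36.9 and 33.1 CPM on average in competent and depleted samples, a small fall with overlapping groups (log2 change -0.16, adjusted p = 0.0332). Of the alpha subunit message per kilobase, Hif1a held 74% ± 2.49 in competent and 77.2% ± 1.69 in depleted samples.

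Of the 12 HIF targets, 6 rose, 5 fell and 1 (Ankrd37) did not pass, where 34.9% of all genes tested rose and 34.3% fell. Adm, among the 6, met the filter on low counts through its depleted samples only. The median log2 change of the 12 was 0.20. Above 1.5-fold 5 rose and 2 fell, where 16.9% of all genes rose and 11.6% fell by that much. With the length trend removed, 5 rose and 4 fell, and the median was 0.25. No test was made of the difference between the enzymes and the HIF targets as lists, and their medians are descriptions.

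Of the oxygen sensors, Egln1 and Egln3 are direct feedback targets of HIF. Egln1 (chromosome 8, 124908587 to 124949324) encodes PHD2, the main hydroxylase of the HIF alpha subunit. It had 73.5, 67.2 and 67.1 CPM in competent and 38.7, 39.8 and 42.5 CPM in depleted samples. The groups were well separated, 1.71-fold lower in depleted cells (log2 change -0.78, SE 0.055, adjusted p = 3.23e-08). Egln3, which encodes PHD3 and in many cells is among the most inducible HIF targets, had 5.11, 4.50 and 4.86 CPM against 4.16, 3.99 and 2.75 CPM. Its fall (log2 change -0.42, adjusted p = 0.0256) leaned on depleted replicate 3 and was lost without it (log2 change -0.24, adjusted p = 0.128), and also when competent sample 1 or 3 was left out (adjusted p = 0.0658 and 0.0544). Per kilobase Egln1 held 34.4% ± 1.35 of the message of the 3 Egln genes in competent and 20.5% ± 1.33 in depleted samples. Egln2, the form that hypoxia does not induce, rose from 73.4 to 89.1 CPM (log2 change 0.28, adjusted p = 7.24e-05) and held 62.3% ± 1.53 and 77.1% ± 0.857, and the summed level was nearly equal, at 55.9 and 54.9 CPM per kilobase.

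**Figure D3:**
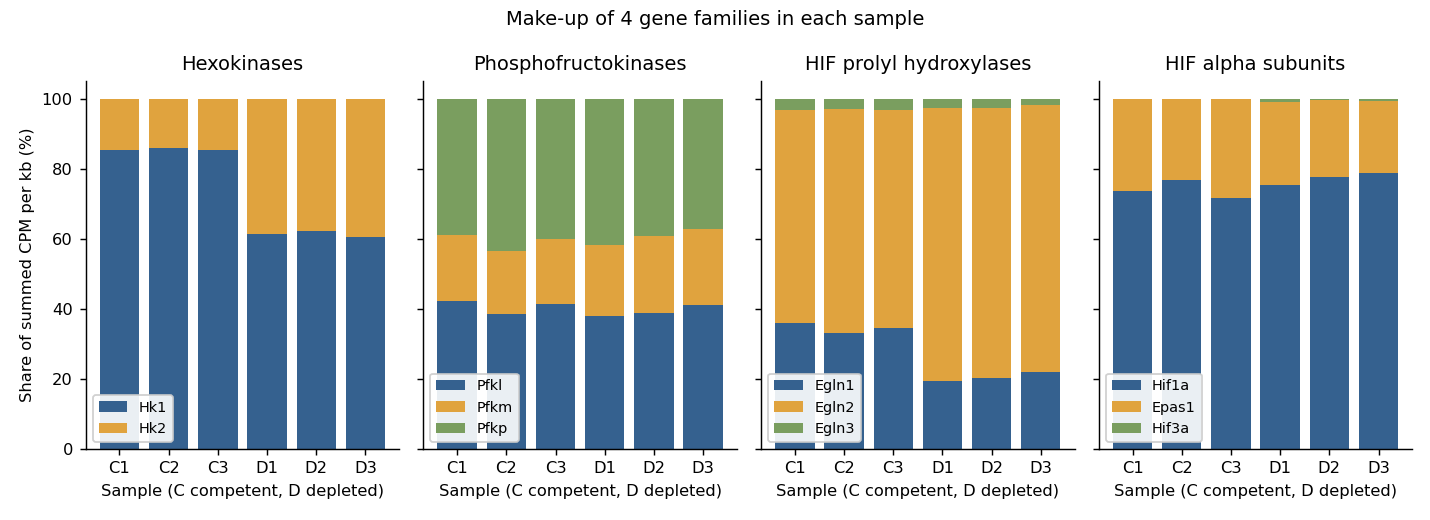
Share of the summed CPM per kilobase of main transcript held by each member of 4 gene families, as stacked bars from 0 to 100% for the 3 competent (C1 to C3) and 3 depleted (D1 to D3) samples. Hk2 holds 14.2% to 14.8% of hexokinase message in competent and 37.9% to 39.6% in depleted samples, Egln1 falls from 33.1% to 35.8% down to 19.3% to 21.9%, and phosphofructokinase and HIF alpha shares differ little.

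The remaining HIF targets with a fall or a small change were Car9, Bnip3, Ankrd37, P4ha2 and P4ha1. Car9, which encodes the surface enzyme carbonic anhydrase IX and depends closely on HIF, had 83.1, 92.7 and 79.3 CPM in competent and 54.3, 53.2 and 44.9 CPM in depleted samples, 1.68-fold lower (log2 change -0.75, SE 0.073, adjusted p = 8.38e-07). The mitophagy gene Bnip3 had 16.4, 17.2 and 18.3 CPM against 15.3, 14.7 and 14.5 CPM, a small fall (log2 change -0.23, adjusted p = 0.00966) that was lost with the length trend removed (adjusted p = 0.0616); 22.3% of its exon length is shared with an antisense gene, and how strand was treated in counting was not given. Ankrd37, a small ankyrin-repeat gene, was at 0.611 to 0.877 CPM against 0.499 to 0.951 CPM, too low for its groups to be told apart (log2 change 0.15, SE 0.30, adjusted p = 0.674), and 26.4% of its exon length is shared with antisense genes. The collagen prolyl hydroxylase subunits went opposite ways. P4ha2 fell from 36.0 ± 2.11 to 29.6 ± 1.71 CPM (log2 change -0.28, adjusted p = 0.000994), and P4ha1 rose from 30.4 ± 1.46 to 36.2 ± 1.72 CPM (log2 change 0.25, adjusted p = 0.00132), a call lost with the length trend removed (log2 change 0.07, adjusted p = 0.257).

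Of the 6 HIF targets that rose, 5 did so by 1.91-fold or more, P4ha1 being the exception. Vegfa (chromosome 17, 46016993 to 46032369), which encodes the main growth factor of blood vessels, had 118, 125 and 119 CPM in competent and 540, 464 and 528 CPM in depleted samples. Depleted replicate 2 was the lowest of its group and still far above every competent sample, and the rise was 4.23-fold (log2 change 2.08, SE 0.058, adjusted p = 4.13e-12). Ddit4 (chromosome 10, 59949669 to 59951834), which encodes the mTOR inhibitor REDD1 and answers to HIF, p53, glucocorticoids and ATF4, had 182, 164 and 181 CPM against 620, 641 and 702 CPM. The rise was 3.73-fold (log2 change 1.90, SE 0.058, adjusted p = 9.82e-12).

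Adm, which encodes the peptide hormone adrenomedullin, changed by the largest factor but from a very low level. It had 6, 9 and 6 counts in competent and 58, 104 and 97 counts in depleted samples, or 0.159 to 0.255 against 2.30 to 3.24 CPM, a rise of 13.9-fold (log2 change 3.80, SE 0.27, adjusted p = 4.38e-08). Adm met the filter on low counts through its depleted samples only. Its adjusted p is therefore no independent support for the rise, and Adm is among the HIF targets counted as rising. Ndrg1 (chromosome 15, 66929318 to 66969640), a stress and differentiation gene, had 188, 194 and 177 CPM against 454, 438 and 453 CPM, 2.41-fold higher (log2 change 1.27, adjusted p = 5.52e-11). Kdm3a, which encodes a histone demethylase that removes methyl groups from lysine 9 of histone H3, had 59.7, 65.0 and 62.2 CPM against 119, 120.4 and 117 CPM, 1.91-fold higher (log2 change 0.93, adjusted p = 7.09e-10). These 5 genes were singled out by the size of their rise. None had overlapping groups, which was also so for 72.5% of all genes tested. Each of the 5 kept a log2 change of at least 0.72 with the length trend removed.

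**Figure D4:**
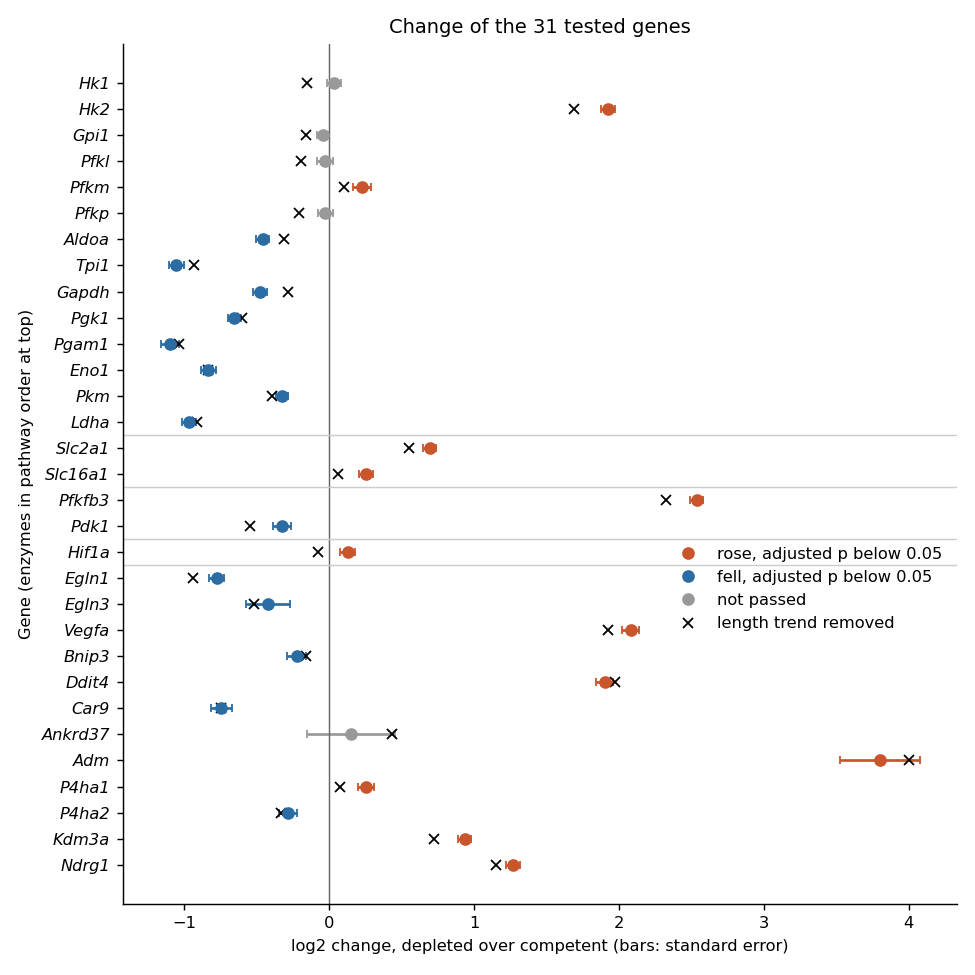
The log2 change (depleted over competent) of the 31 tested genes with its standard error, in orange for rises and blue for falls at an adjusted p below 0.05 and grey otherwise; crosses give the change with the length trend removed. The run of blue points from Aldoa to Ldha contrasts with Hk2, Pfkfb3 and the HIF targets Vegfa, Ddit4, Adm, Kdm3a and Ndrg1 on the right, while Egln1, Egln3 and Car9 lie on the left.

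Promoters were examined because HIF binds a short core, ACGTG or GCGTG, in the DNA. RefSeq windows (GRCm38.p6) of the 250 bases before a gene start were found for 31 of the 32 genes, in 46 windows since some genes have several starts. Some windows of a gene overlap, as for Aldoa, Eno1 and Pfkm, so the same core can be counted again and windows are not independent. A core on either strand was present in 78.3% of these windows, against 55% of 13202 windows of genes tested here and 38.6% of all 32851 windows. GC content, which makes such cores more likely, had a median of 62.8% in member windows and 59.6% in windows of tested genes. The share was 75% of 24 windows for enzymes and 78.6% of 14 for HIF targets. Cores were counted on both strands, so that the palindrome CACGTG counts as a pair, and a match is a description of letters, not a bound site. The windows of a pair of genes that rose and a pair that fell are printed as examples, with cores in capitals. Since 29 of the 31 genes have a core in some window, these examples say nothing about direction. Tpi1, which fell, and Gpi1, which did not pass, have none. The Ldha window printed is the first of 2, and the other has 1 match.
Hk2 promoter, chr6:82774455-82774704, minus strand: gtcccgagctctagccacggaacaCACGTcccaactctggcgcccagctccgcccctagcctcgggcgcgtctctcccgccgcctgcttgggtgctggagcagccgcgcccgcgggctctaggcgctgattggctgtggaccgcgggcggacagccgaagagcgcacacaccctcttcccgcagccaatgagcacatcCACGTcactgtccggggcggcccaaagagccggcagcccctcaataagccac
Adm promoter, chr7:110627407-110627656, plus strand: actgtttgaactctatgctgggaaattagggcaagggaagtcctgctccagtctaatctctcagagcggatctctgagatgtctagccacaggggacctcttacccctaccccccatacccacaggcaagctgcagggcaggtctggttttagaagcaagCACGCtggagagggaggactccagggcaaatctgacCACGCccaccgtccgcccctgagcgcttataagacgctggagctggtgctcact
Ldha promoter, chr7:46845554-46845803, plus strand: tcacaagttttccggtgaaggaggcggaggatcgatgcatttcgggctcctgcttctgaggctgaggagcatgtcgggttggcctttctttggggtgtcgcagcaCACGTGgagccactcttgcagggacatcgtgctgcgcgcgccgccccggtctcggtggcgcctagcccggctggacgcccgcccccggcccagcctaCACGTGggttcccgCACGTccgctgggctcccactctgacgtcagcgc
Egln1 promoter, chr8:124949255-124949504, minus strand: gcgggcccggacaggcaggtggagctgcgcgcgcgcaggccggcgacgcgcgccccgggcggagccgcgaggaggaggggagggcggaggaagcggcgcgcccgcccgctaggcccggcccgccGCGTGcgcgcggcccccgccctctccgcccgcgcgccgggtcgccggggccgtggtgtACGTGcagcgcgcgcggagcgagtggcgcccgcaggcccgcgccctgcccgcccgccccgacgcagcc
Hk2, which rose, has cores that begin 226 and 52 bases before its start, and Adm, which rose, has cores at 90 and 54 bases. Ldha, which fell, has 5 matches in 3 places of this window, of which the palindrome accounts for 2 places, and Egln1, which fell, has 2.

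The other genes of the pathway were read from 7 lists chosen by textbook membership, with earlier results of these data known. Of 121 genes tested in these lists, 50 rose, 52 fell and 19 did not pass, where 34.9% of all genes tested rose and 34.3% fell. The counts of each list below are to be read against these shares. Each gene said below to have risen or fallen passed with an adjusted p of 0.0120 or lower (edgeR).

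All 8 genes of the pentose phosphate pathway, which branches from glucose 6-phosphate to make NADPH and ribose, fell, also with the length trend removed. Their median log2 change was -0.54, although 34.3% of all genes fell. Taldo1, which encodes transaldolase, fell from 139 to 84.2 CPM on average (log2 change -0.72), G6pdx, the entry enzyme gene, from 82.5 to 51.3 CPM (-0.68), Rpia from 33.8 to 21.2 CPM (-0.68) and Pgd from 156 to 105 CPM (-0.57). Tkt and H6pd, which encode transketolase and the enzyme of the endoplasmic reticulum, fell least, with log2 changes of -0.15 and -0.15.

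Of 19 other genes of glycolysis and gluconeogenesis tested, 6 rose, 8 fell and 5 did not pass. Bpgm, which encodes bisphosphoglycerate mutase, fell from 13.4 to 4.16 CPM (log2 change -1.68), Pgp, which encodes a phosphoglycolate phosphatase, fell by 1.06 on the log2 scale, the aldolase gene Aldoc by 1.00 and the ubiquitous glucose phosphatase gene G6pc3 by 0.92. Eno2 and Pfkfb4, both known HIF targets and named after their values were seen, rose from low levels, from 1.19 to 5.53 CPM and from 1.26 to 3.21 CPM. Of 9 other sugar and lactate transporter genes, 3 rose, 2 fell and 4 did not pass. Bsg, which encodes basigin, the partner that brings MCT1 to the membrane, fell from 374 to 207 CPM (log2 change -0.85), and the urate and sugar carrier gene Slc2a9 rose from 13.7 to 18.4 CPM.

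Among 14 genes that govern the entry of pyruvate into mitochondria, 5 rose, 8 fell and 1 did not pass, the share of rises being near the 34.9% of all genes. The pyruvate dehydrogenase kinase genes went different ways, with Pdk4 up from 3.25 to 12.8 CPM (log2 change 1.98) and Pdk3 down from 14.1 to 7.93 CPM (log2 change -0.83). The opposing phosphatase genes also divided, since Pdp2 rose by 1.10 and Pdp1 fell by 0.79 on the log2 scale.

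Of 17 HIF subunits and regulators tested, 10 rose, 5 fell and 2 did not pass, beside 34.9% and 34.3% of all genes rising and falling; the median log2 change was 0.28. Cited2, which encodes a competitor of HIF for the coactivators p300 and CBP and is itself a HIF target, rose from 141 to 672 CPM (log2 change 2.25), and Siah2, which encodes a ubiquitin ligase for the Egln hydroxylases, rose from 15.6 to 46.9 CPM (log2 change 1.59). Elob and Rbx1, subunits of the ligase that destroys HIF alpha, fell from 97.0 to 48.5 CPM and from 76.1 to 38.0 CPM. Vhl, the recognition subunit of that ligase, did not pass (log2 change 0.05, adjusted p = 0.474), and Arnt, the partner of the alpha subunits, rose by 0.88 on the log2 scale. Vhl and Arnt were named after their values were seen.

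The test covered 46 other HIF targets, of which 23 rose and 18 fell and 5 did not pass; the median log2 change of 0.24 became 0.02 with the length trend removed. The clock repressor gene Bhlhe40 rose from 330 to 2640 CPM (log2 change 3.00), Pnrc1, a nuclear receptor coactivator gene, from 83.5 to 526 CPM (2.66), the lipid droplet gene Hilpda from 12.5 to 41.9 CPM (1.75) and the endocytic receptor gene Lrp1 from 52.1 to 124 CPM (1.25). Of the 46, 17 rose and 3 fell by more than 1.5-fold, where 16.9% of all genes rose and 11.6% fell by that much. With the length trend removed, 19 rose and 20 fell at the threshold alone, beside 29.8% and 39.8% of all genes. Among those that fell were Angptl4 (log2 change -0.86) and Mif (-0.65), named after their values were seen. Among 8 genes of glucose and energy sensing, 3 rose, 3 fell and 2 did not pass. Txnip and Arrdc4, arrestin genes that the glucose-responsive factors MLXIP and MLXIPL induce and that limit glucose uptake, fell from 109 to 54.0 CPM (log2 change -1.02) and from 12.1 to 6.69 CPM (log2 change -0.85). Myc rose from 145 to 466 CPM (log2 change 1.68), and Mlxipl from 3.34 to 7.21 CPM (log2 change 1.10).

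**Figure D5:**
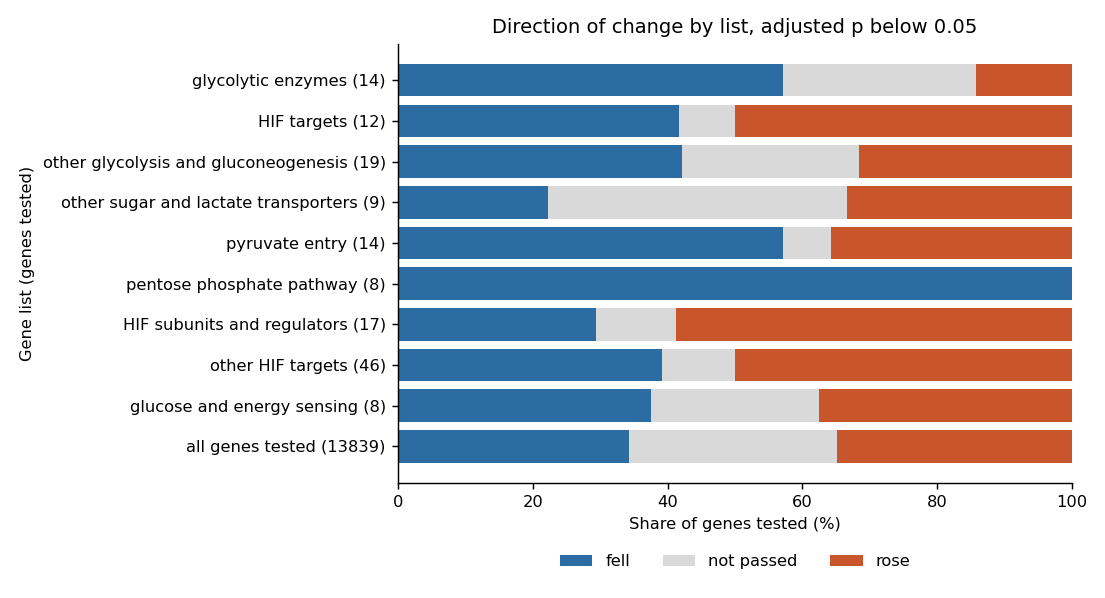
Share of genes tested that fell (blue), did not pass (grey) or rose (orange) at an adjusted p below 0.05 among the enzymes, the HIF targets and the 7 other lists, with the number tested in brackets and all genes tested at the bottom. The pentose phosphate list is blue throughout, with 8 of 8 genes lower, and in the list of HIF subunits and regulators 10 of 17 are orange.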

How the data were processed

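Messenger RNA was counted in 6 samples, 3 competent and 3 depleted. STAR 2.7.1a, featureCounts, cutadapt 1.16, FastQC 0.11.9, DESeq2 1.34.0, MultiQC 1.3 and GRCm38 are named in the submitters' processing notes; the order of use, annotation and strand setting are not given in the sources used here. Per the labels' protocols, libraries were directional and poly-A selected. The deposited values are the authors' raw counts per gene, not normalized. Columns named WT were taken as competent and KO as depleted, by replicate number, and 0 columns belonged to other samples.

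The test was that of edgeR 4.0.16 under R 4.3.3 (filterByExpr, TMM, quasi-likelihood F-test, two-sided, Benjamini-Hochberg over all 13839 genes tested, threshold 0.05), fitted on group alone, so fold changes give depleted over competent. GENCODE M21 (GRCm38) held 32009 of the identifiers and gave positions and lengths; the main transcript is the longest coding one in the basic set. The members and lists were chosen with earlier results of these data known. Every member was named, and of each other list up to 4 genes that passed with the largest change and a mean log2 CPM of at least 2; other list genes named were chosen after their values were seen. Replicates of a group differed beyond sampling noise, so each counted once. The edgeR code, with and without the length correction, was tested on simulated counts. Alternatives were DESeq2 1.42.0, limma 3.58.1 (voom), other scalings, filters and thresholds, a replicate block, removal of the length trend (loess, span 0.3) and leaving out each sample.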

Additional observations from a re-analysis of the deposited data

How the results depend on the processing

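Leaving out each sample in turn changed no count of members by more than 1.5 times. In every fit run, the 8 falls from Aldoa to Ldha kept their direction and an adjusted p below 0.05. So did the rises of Hk2, Pfkfb3, Slc2a1, Vegfa, Ddit4, Ndrg1 and Kdm3a. Adm also rose in each fit. It met the filter on low counts through its depleted samples only, so its adjusted p is no independent support. A fold change over 1.5 in addition to the threshold, which Aldoa, Gapdh and Pkm did not reach, left 3936 genes (2332 risen, 1604 fallen), 15 members (7 of them fallen), 1 enzyme risen and 5 fallen, 2 HIF targets fallen, and 54 other pathway genes (31 risen, 23 fallen). With the length trend removed 1 enzyme rose and the median log2 change of the enzymes was -0.302, both the same with the replicate block added; upper-quartile scaling gave -0.443. Among members not past the threshold, or Hif1a, the sign turned as follows. Hk1 was at -0.017 with upper-quartile scaling, -0.155 with the length trend removed, -0.154 with the replicate block as well and -0.016 without competent replicate 1 (range -0.016 to 0.069 over samples left out). Pfkl was at 0.00365 without competent replicate 1 and 0.003 without depleted replicate 1 (range -0.091 to 0.00365), Pfkp at 0.022 without depleted replicate 3 (range -0.061 to 0.022), and Hif1a at -0.079 with the length trend removed, with or without the replicate block. The labels' replicate numbers did not pair the samples, since same-numbered samples correlated at -0.028, 0.013 and -0.016 in their deviations from the group means, and no sample correlated best with its own number. With the replicate block 9526 genes and 26 members passed. Genes near 3 counts, such as Slc16a3, are limited by depth.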
